A study of Mus musculus with 12 samples.

Results

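The genes described are 10 members of the oxidant defence programme of the transcription factor NRF2 and of glutathione synthesis and recycling, taken by symbol from a table of 55450 genes: Nfe2l2, Keap1, Gclc, Gclm, Gsr, Nqo1, Hmox1, Txnrd1, Srxn1 and Cat. All 10 matched exactly 1 gene each, and all 10 passed the filter on low counts, which left 15708 genes. The data are mRNA libraries of the outer cortex of the kidney from 12 mice aged 12 weeks, in 4 groups of 3. Wild-type (WT) mice received INT-747 or nicotinamide riboside (NR), and Tg26 mice received INT-747 or NR. Tg26 mice carry an HIV provirus lacking part of its genes, driven by the viral promoter, and develop a kidney disease modelled on HIV-associated nephropathy. INT-747, or obeticholic acid, activates FXR, the nuclear receptor for bile acids, whereas NR is a precursor of NAD. Every mouse had received one of the treatments, so a treatment difference is INT-747 against NR, and untreated mice were not analysed here. The sources used here do not give dose, route, length of treatment, strain or sex.

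Nfe2l2 encodes NRF2, a transcription factor that the adaptor protein KEAP1 holds in the cytoplasm and marks for destruction by the proteasome. Oxidants and electrophiles modify cysteines of KEAP1, NRF2 then accumulates and, with a small MAF partner, binds antioxidant response elements near its target genes. Because this switch acts on protein stability, the level of Nfe2l2 mRNA is not a measure of NRF2 activity. Gclc and Gclm encode the catalytic and modifier subunits of glutamate-cysteine ligase, which makes the first and rate-limiting step of glutathione synthesis, and Gsr encodes the reductase that regenerates reduced glutathione. Txnrd1 encodes cytosolic thioredoxin reductase and Srxn1 the sulfiredoxin that repairs overoxidised peroxiredoxins. Nqo1 reduces quinones, Hmox1 breaks down heme, and Cat encodes catalase, the peroxisomal enzyme that removes hydrogen peroxide and is abundant in the proximal tubule.

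Start-site windows of 300 bases, from 250 bases before to 50 after the annotated start, were taken from RefSeq on build GRCm38.p6. They were held for 7 of the 10 genes, as 9 windows, since Txnrd1 had 3. Gclc, Gsr and Hmox1 had none. The core of the antioxidant response element, TGACNNNGC read on either strand, was found in 4 of the 9 windows, those of Nfe2l2, Srxn1, Gclm and 1 of the 3 of Txnrd1, against 12.4% of all 32851 windows of the same length. A match is a run of letters and not a measured binding site, and no match says only that the core is not in the window. The windows of Gclm, the member that differed between treatments in Tg26 mice and has a window, of Nfe2l2, the regulator itself, and of Nqo1, a classical target, are shown 5′ to 3′ on the strand of the gene with any match in capitals.
Gclm, chr3:122245307-122245606, plus strand: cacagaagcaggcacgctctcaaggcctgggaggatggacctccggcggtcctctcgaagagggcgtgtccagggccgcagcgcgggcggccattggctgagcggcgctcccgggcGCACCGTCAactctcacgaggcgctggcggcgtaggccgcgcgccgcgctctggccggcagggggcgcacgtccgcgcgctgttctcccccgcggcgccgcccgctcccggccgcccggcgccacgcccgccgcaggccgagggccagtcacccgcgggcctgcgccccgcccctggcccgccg
Nfe2l2, chr2:75704614-75704913, minus strand: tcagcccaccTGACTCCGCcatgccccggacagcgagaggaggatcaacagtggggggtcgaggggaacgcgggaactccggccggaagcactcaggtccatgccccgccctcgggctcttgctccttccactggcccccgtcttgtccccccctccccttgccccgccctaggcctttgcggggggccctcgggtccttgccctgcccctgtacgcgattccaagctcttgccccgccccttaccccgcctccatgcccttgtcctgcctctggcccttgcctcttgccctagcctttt
Nqo1, chr8:107403156-107403455, minus strand: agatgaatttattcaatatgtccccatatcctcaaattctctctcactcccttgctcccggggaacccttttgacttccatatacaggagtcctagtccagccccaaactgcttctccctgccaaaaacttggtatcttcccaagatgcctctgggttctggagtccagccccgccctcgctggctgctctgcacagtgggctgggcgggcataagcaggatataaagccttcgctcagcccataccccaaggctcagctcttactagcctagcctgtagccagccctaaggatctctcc
The match in Gclm starts at position −134 from the start site and that in Nfe2l2 at −240.

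Total counts per library ran from 22286343 to 28952177. The lowest count of any member in any library was 648, for Nqo1. Markers of the proximal tubule, the main cell type of the cortex, summed to 20524 to 51284 CPM, a gene's counts scaled to a common library size, per library. Replicate 3 of the Tg26 mice under NR stood apart in sex: it had 5816 counts of Xist, the transcript of the inactive X chromosome, and 0 of each of 4 Y-linked genes, whereas the other 11 libraries had 1 to 8 counts of Xist. It thus had a female pattern in a set of otherwise male patterns. Libraries also differed in a clock score, the mean log2 CPM of 10 clock genes such as Dbp and Per2 minus the mean of 4 genes, Arntl among them, that peak at the other end of the day. It was 2.45 to 3.17 in Tg26 mice and −0.19 to 0.66 in WT mice under INT-747, so there clock phase and genotype cannot be told apart. Under NR it was 3.25, 0.156 and −0.608 in WT replicates 1, 2 and 3 and 2.87, 3.57 and 0.576 in Tg26 replicates 1, 2 and 3. In bulk tissue, fewer cells of a type and less RNA per cell cannot be told apart.

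Cat was by far the most abundant member, at 499 CPM per kilobase of merged exon length as the mean over the 12 libraries. Hmox1 followed at 100.2 CPM per kilobase, a mean set by a few libraries. Gsr stood at 55.3, Gclc at 41.3, Gclm at 38.6, Txnrd1 at 27.2, Nqo1 at 23.6, Nfe2l2 at 22.3 and Srxn1 at 21.6 CPM per kilobase. Keap1 was the lowest at 8.21 CPM per kilobase. From Gsr down to Srxn1 in this order, each gene overlapped the next in its range over the libraries. The ratio of the highest to the lowest library was 1.21 for Keap1, 1.33 for Srxn1 and 1.74 for Cat. It was 1.91 for Nqo1, 2.07 for Gclm, 2.14 for Txnrd1, 2.18 for Nfe2l2, 2.25 for Gsr and 2.68 for Gclc. For Hmox1 it was 31.7. Profiles over the 12 libraries, each centred on its own mean, were closest for Gclm and Gsr, with a root-mean-square difference of 0.064 log2 units. The next closest pair was Nqo1 and Cat at 0.142, and Gclc stood 0.206 from Gsr and 0.208 from Gclm.

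**Figure D1:**
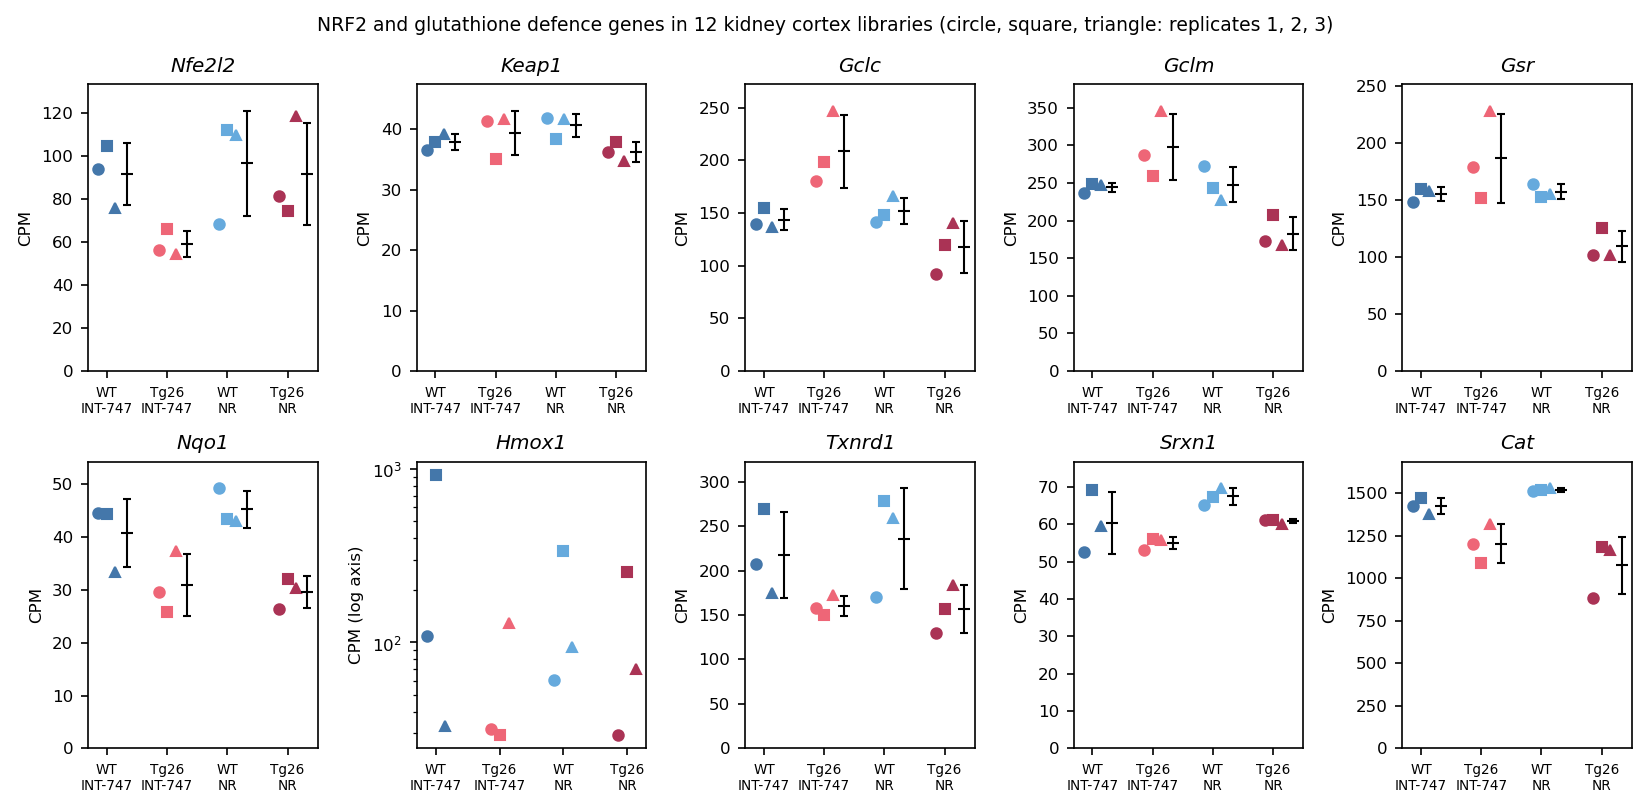
Expression of the 10 genes in CPM (vertical axis, linear from 0 except for Hmox1, where it is a log axis) in the 4 groups. Points are single mice, with the replicate number as the marker shape, and black bars are the mean and SD of 3 mice (not drawn for Hmox1). Gclc, Gclm and Gsr have their highest group means in Tg26 mice under INT-747 and their lowest in Tg26 mice under NR. Hmox1 ranges from 29.2 to 926 CPM.

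The 3 glutathione genes Gclc, Gclm and Gsr were the members that differed between the treatments, and they did so in Tg26 mice. On build mm10, Gclc (ENSMUSG00000032350.9) spans chromosome 9 from 77754535 to 77794485 on the plus strand, Gclm (ENSMUSG00000028124.15) chromosome 3 from 122245557 to 122270732 on the plus strand, and Gsr (ENSMUSG00000031584.16) chromosome 8 from 33652523 to 33698163 on the plus strand. Gclc was at 181, 199 and 247 CPM in Tg26 replicates 1, 2 and 3 under INT-747 and at 92.3, 120.1 and 141 CPM under NR. Gclm was at 287, 260.1 and 346 CPM under INT-747 and at 173, 208 and 167 CPM under NR. Gsr was at 179.5, 152 and 229 CPM under INT-747 and at 102, 125 and 102 CPM under NR. For each of the 3 genes every Tg26 mouse under INT-747 lay above every Tg26 mouse under NR. Replicate 3 under INT-747 was the highest of all 12 libraries for all 3 genes. Means were 209 ± 34.5 against 118 ± 24.3 CPM for Gclc (SD, n = 3), a log2 fold change of 0.83 with a standard error (SE) of 0.15. Gclm averaged 298 ± 44.2 against 183 ± 21.9 CPM (log2 0.71, SE 0.12), and Gsr 187 ± 38.9 against 109.6 ± 13.6 CPM (log2 0.77, SE 0.14). These are 1.77-fold, 1.63-fold and 1.70-fold higher levels under INT-747. The adjusted p from edgeR's quasi-likelihood test was 0.0287 for Gclc and 0.0274 for Gclm and for Gsr, over all genes tested and with Benjamini-Hochberg adjustment.

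In this contrast 3 of 10 members were called, all higher under INT-747, where 4.38% of the 15708 genes were called in either direction and 2.9% as higher. Groups did not overlap for 5 of 10 members, against 28% of all genes. An unadjusted p under 0.05 was found for 4 members and 27.3% of all genes, and DESeq2 called Nfe2l2 beside the 3 glutathione genes, with 16.3% of genes called. In this edgeR fit the other members did not pass. Nfe2l2 lay the other way, at 56.3, 65.8 and 54.6 CPM under INT-747 and 81.6, 74.6 and 119 CPM under NR, without overlap (log2 −0.64, SE 0.22, adjusted p = 0.0971 in edgeR). With the clock score as a covariate Nfe2l2 was called lower as well (log2 −0.53, SE 0.12, adjusted p = 0.0277 in edgeR), in a fit that called 1235 genes. Srxn1 was also lower in every mouse under INT-747 (53.0 to 56.1 CPM) than under NR (60.1 to 61.2 CPM), with a log2 of −0.15 and an adjusted p = 0.311 in edgeR. For Nqo1, Txnrd1 and Cat the 95% intervals of the log2 difference were −0.26 to 0.39, −0.41 to 0.47 and −0.11 to 0.43.

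The calls for the glutathione genes depended on single libraries. All 3 missed the threshold without WT replicate 1 under INT-747, which is not in the contrast but enters the shared estimate of spread (adjusted p = 0.0504 for Gclc and 0.0502 for the others in edgeR). They also missed it when Tg26 replicate 1 under INT-747 was left out (0.087 for each) and when Tg26 replicate 3 of that treatment was left out (0.126, 0.104 and 0.0983 for Gclc, Gclm and Gsr). Without Tg26 replicate 1 under NR the values were 0.0734, 0.0688 and 0.0738. Without the library of female pattern Gclc remained called (log2 0.95, adjusted p = 0.0384), while Gclm (log2 0.63, 0.0612) and Gsr (log2 0.70, 0.0626) did not. The log2 difference stayed between 0.67 and 0.95 for Gclc, 0.57 and 0.79 for Gclm and 0.58 and 0.87 for Gsr over all 12 removals.

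Sums of cell markers also differed on average between these Tg26 groups, but each sum overlapped between them. Summed macrophage markers were 142, 391 and 118 CPM in Tg26 replicates 1, 2 and 3 under INT-747 and 691, 321 and 80.7 CPM under NR, with 12 of 13 markers lower on average under INT-747. Summed tubular injury markers were 601, 1056 and 513 CPM under INT-747 and 2261, 899 and 1317 CPM under NR, with 11 of 11 lower on average. Summed proximal tubule markers were 47403, 40559 and 51284 CPM under INT-747 and 24721, 42222 and 20524 CPM under NR, with 11 of 15 higher on average and overlap through replicate 2 of either group. The single proximal tubule marker that edgeR called was lower under INT-747, namely Slc5a12 (log2 −0.79, SE 0.16, adjusted p = 0.0299 in edgeR). Without Kap and Slc7a13, which male mouse kidneys express more, the proximal tubule sums were 19909 to 23314 CPM and 15499.7 to 21745 CPM, which also overlap. Summed markers of the thick limb and collecting duct were 3486 to 3680.5 CPM under INT-747 and 3035 to 6127 CPM under NR, the highest being the library of female pattern. All 6 of them were lower on average under INT-747 (median log2 −0.40), with the water channel Aqp2 called (log2 −0.68, SE 0.15, adjusted p = 0.0362 in edgeR). In edgeR an unadjusted p under 0.05 was found for 1 of 13 macrophage and 2 of 11 tubular injury markers, with no call in either list. It was found for 5 of 15 proximal tubule and 2 of 6 thick limb and collecting duct markers, and for 27.3% of all genes. DESeq2 called 0 of 13 macrophage, 2 of 11 tubular injury and 4 of 15 proximal tubule markers. It also called 2 of 6 thick limb and collecting duct markers, against 16.3% of all genes. No member of these 4 lists was at 0 in all libraries. Their part in the difference of the glutathione genes was not tested.

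**Figure D2:**
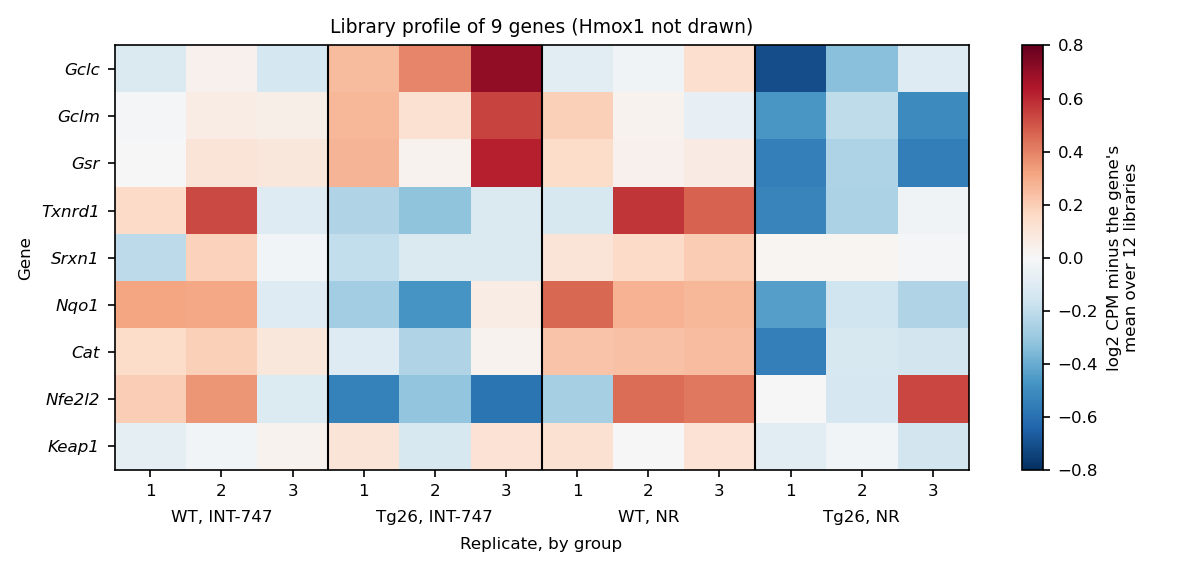
Log2 CPM of 9 genes minus each gene's own mean over the 12 libraries (colour, log2 units), with libraries in columns by group and replicate. Gclc, Gclm and Gsr are above their means in the 3 Tg26 mice under INT-747 and below them in the 3 Tg26 mice under NR, while Nfe2l2 is lowest in Tg26 mice under INT-747.

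WT mice did not show this treatment difference at the depth and spread of these libraries. Gclc was at 139, 155 and 137 CPM under INT-747 and 142, 149 and 166 CPM under NR, Gclm at 237, 249 and 247 against 273, 243 and 228 CPM, and Gsr at 148, 159.7 and 159 against 165, 152 and 156 CPM. The groups overlapped for all 3 genes. The 95% interval of the log2 difference was −0.42 to 0.25 for Gclc, −0.29 to 0.25 for Gclm and −0.32 to 0.28 for Gsr. No member was called in WT mice by edgeR, where 0.0127% of all genes were called. No member had an unadjusted p under 0.05, against 5.01% of all genes, and DESeq2 called 0 members and 0.389% of the genes it gave an adjusted p. Cat was the only member whose groups did not overlap, at 1425, 1472 and 1374 CPM under INT-747 and 1511, 1515 and 1530.4 CPM under NR, against 6.21% of all genes lower without overlap. Its log2 difference was −0.09 (SE 0.12). Averaged over the genotypes, the treatment difference was 0.37 for Gclc, 0.34 for Gclm and 0.38 for Gsr on the log2 scale (adjusted p = 0.0999 for Gclm and up to 0.130 for the others in edgeR). There edgeR called 0 members and 0.427% of all genes, 5 members and 17.7% of genes had an unadjusted p under 0.05, and DESeq2 called the same 3 genes and 5.72% of genes.

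The genotype comparison of the same 3 genes took opposite directions under the treatments, without a call in either. Under INT-747 Gclc averaged 209 ± 34.5 CPM in Tg26 and 144 ± 9.78 CPM in WT mice (log2 0.54, SE 0.15, adjusted p = 0.169 in edgeR). Under NR it averaged 118 ± 24.3 against 152 ± 12.4 CPM (log2 −0.37, SE 0.15, adjusted p = 0.209). Gclm stood at log2 0.29 (SE 0.12) under INT-747 and −0.44 (SE 0.12) under NR, and Gsr at 0.26 (SE 0.14) and −0.52 (SE 0.14). Gclc and Gclm separated the genotypes without overlap under both treatments, higher in Tg26 mice under INT-747 and lower under NR, and Gsr only under NR. For Gclc under NR the nearest mice were at 140.8 CPM (Tg26 replicate 3) and 141.8 CPM (WT replicate 1). The difference between the genotype effects, the interaction, was 0.91 (SE 0.22) for Gclc, 0.73 (SE 0.17) for Gclm and 0.79 (SE 0.19) for Gsr on the log2 scale. The unadjusted p was 0.0014 to 0.0015 and the adjusted p = 0.229 for each in edgeR, which called no gene at all (0%). An unadjusted p under 0.05 was found for 3 of 10 members and 15.5% of all genes. DESeq2 called these 3 members and 1.95% of the genes in the interaction.

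Nqo1, Cat and Txnrd1 had lower means in Tg26 than in WT mice under both treatments, none past the threshold. Nqo1 was at 29.6, 25.9 and 37.3 CPM in Tg26 replicates 1, 2 and 3 and 44.6, 44.5 and 33.3 CPM in WT replicates under INT-747, and at 26.4, 32.1 and 30.4 against 49.3, 43.4 and 43.0 CPM under NR. The groups were apart under NR and overlapped under INT-747 through Tg26 replicate 3 and WT replicate 3. Averaged over the treatments, the log2 difference of Nqo1 was −0.51 (SE 0.10, adjusted p = 0.0624 in edgeR), a level of 0.704 times that of WT mice. Cat was at 1203, 1090.4 and 1316 against 1425, 1472 and 1374 CPM under INT-747 and at 881, 1180.2 and 1164 against 1511, 1515 and 1530.4 CPM under NR. Every Tg26 mouse was below every WT mouse of its treatment, and the averaged log2 difference was −0.37 (SE 0.09, adjusted p = 0.0836 in edgeR). Txnrd1 was at 158, 149.7 and 173 against 208, 269.7 and 174 CPM under INT-747, and at 129.9, 157 and 183 against 171, 278 and 259 CPM under NR. Its averaged log2 difference was −0.51 (SE 0.14, adjusted p = 0.101 in edgeR). Nqo1 lies on chromosome 8 from 107388225 to 107403206, Cat on chromosome 2 from 103453849 to 103485160, both on the minus strand, and Txnrd1 on chromosome 10 from 82833951 to 82897712 on the plus strand. Other cell markers moved with genotype: all 13 macrophage markers and 10 of 11 tubular injury markers had higher means in Tg26 mice under either treatment, while 8 and 4 of 15 proximal tubule markers were higher under INT-747 and under NR. Summed macrophage markers were 98.3 to 131 CPM in WT and 118 to 391 CPM in Tg26 mice under INT-747, and 63.3 to 95.5 against 80.7 to 691 CPM under NR. Summed tubular injury markers were 526 to 624 CPM in WT and 513 to 1056 CPM in Tg26 mice under INT-747. Under NR they were 477 to 566 against 899 to 2261 CPM, without overlap. There edgeR gave an unadjusted p under 0.05 for 13 of 13 macrophage and 9 of 11 injury markers (20.7% of all genes), without a call. Under INT-747 it did so for 1 in each list (15.3%). DESeq2 called 6 and 7 under NR (6.28%) and 0 in each list under INT-747 (3.87%). The part of these markers in the genotype differences was not tested.

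In the average over treatments, 9 of 10 members had lower means in Tg26 mice, with a median log2 of −0.25 against 0.00 for all genes, of which 50.7% were higher. No member was called by edgeR and 0.446% of all genes were. An unadjusted p under 0.05 was found for 5 of 10 members and 20% of all genes, and DESeq2 called Nqo1, Txnrd1 and Cat and 7.61% of genes. Without the library of female pattern the same 3 genes passed in edgeR, where 1223 genes were called. Nqo1 alone passed without Tg26 replicate 3 under INT-747, among 51 genes called, and Txnrd1 alone without WT replicate 1 under NR, among 357. Nqo1 and Cat passed without Tg26 replicate 2 under NR, among 284.

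Counts of members in the single genotype contrasts were as follows. Under INT-747 edgeR called 0 of 10 members and 0.267% of all genes. An unadjusted p under 0.05 was found for 4 members and 15.3% of all genes, and groups did not overlap for 5 members and 26% of all genes. DESeq2 called Gclc alone and 3.87% of genes. Under NR edgeR called 0 members and 0% of genes, 6 members and 20.7% of genes had an unadjusted p under 0.05, and DESeq2 called Gclm, Gsr, Nqo1 and Cat and 6.28% of genes. All 10 members had lower means in Tg26 mice under NR, 7 of them without overlap, against 9.54% of all genes lower without overlap. Without Tg26 replicate 2 under NR, edgeR called Gclm, Gsr, Nqo1 and Cat in that contrast, among 785 genes.

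**Figure D3:**
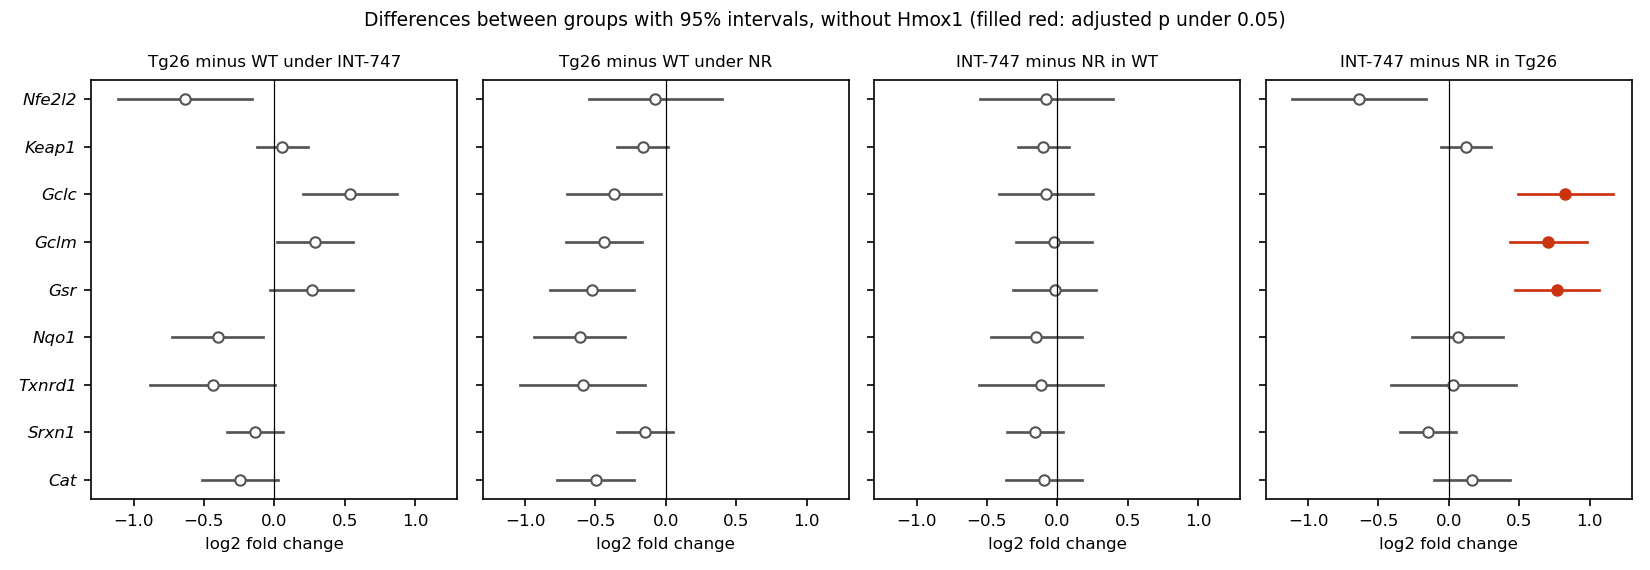
Log2 fold changes (horizontal axis) of 9 genes in 4 comparisons, with 95% intervals from the quasi-likelihood fit of all 12 libraries. Filled red points have an adjusted p under 0.05, namely Gclc, Gclm and Gsr in the treatment comparison of Tg26 mice. Hmox1 is left out because its intervals run from −5.49 to 3.99.

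Both clock levels occurred in both genotypes under NR. For Nqo1 and Cat the genotypes do not overlap there, so any split gives the same direction, and only for Txnrd1 do the genotypes overlap before the split. Among libraries of high score, WT replicate 1 had 49.3 CPM of Nqo1 and Tg26 replicates 1 and 2 had 26.4 and 32.1 CPM. Among those of low score, WT replicates 2 and 3 had 43.4 and 43.0 CPM and Tg26 replicate 3 had 30.4 CPM. Cat was at 1511 against 881 and 1180.2 CPM at high score and at 1515 and 1530.4 against 1164 CPM at low score. Txnrd1 was at 171 against 129.9 and 157 CPM at high score and at 278 and 259 against 183 CPM at low score. Each level holds 1 mouse of a genotype, so these values carry no test, and the low-score Tg26 mouse is the one of female pattern. Under INT-747 each genotype held 1 clock level only.

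Nfe2l2, on chromosome 2 from 75675513 to 75704641 on the minus strand, had a negative slope on the clock score within groups, and the score ranged most widely in the NR groups. In WT mice under NR it was at 68.2 CPM in replicate 1, of high score, and at 112 and 109.6 CPM in replicates 2 and 3, of low score. In Tg26 mice under NR it was at 81.6 and 74.6 CPM in replicates 1 and 2, of high score, and at 119 CPM in replicate 3, of low score. The INT-747 groups, of narrow score, showed no such order, with 56.3, 65.8 and 54.6 CPM at scores of 3.17, 2.62 and 2.45 in Tg26 and 93.8, 105 and 75.9 CPM at 0.663, −0.192 and 0.111 in WT replicates 1, 2 and 3. The 6 libraries of high score had 54.6 to 81.6 CPM and the 6 of low score 75.9 to 119 CPM. This split nearly followed genotype. WT replicate 1 under NR was the only WT library of high score, and Tg26 replicate 3 under NR the only Tg26 library of low score. When the score was added to the group model, a step chosen after the values were seen, the slope of Nfe2l2 was −0.20 log2 units per unit of score (SE 0.04, adjusted p = 0.0309 in edgeR). It was the single member called, where 1.52% of all genes were called and 0.898% with a negative slope. Txnrd1 had a slope of −0.16 (SE 0.05, adjusted p = 0.141 in edgeR). It was at 129.9 to 173 CPM in the 6 libraries of high score and at 174 to 278 CPM in the 6 of low score. That split is the same one, and Txnrd1 also had lower means in Tg26 mice. The slope was 0.03 (SE 0.05) for Nqo1 and −0.02 (SE 0.04) for Cat. The slope of Nfe2l2 lay between −0.22 and −0.19 without any single library, but its adjusted p rose past the threshold without 6 of them. These were WT replicate 2 and Tg26 replicate 1 under INT-747 (0.0599 and 0.061) and WT replicates 1 and 2 and Tg26 replicates 2 and 3 under NR (0.156, 0.0725, 0.0856 and 0.177, all from edgeR).

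**Figure D4:**
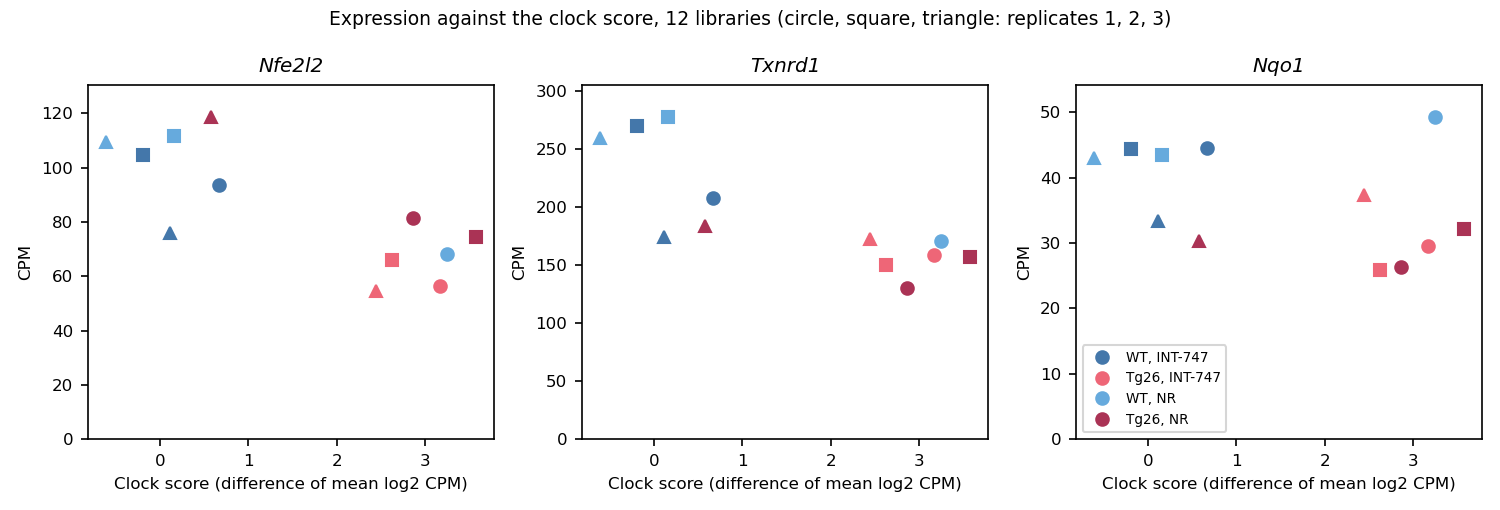
CPM of Nfe2l2, Txnrd1 and Nqo1 (vertical axes, from 0) against the clock score (horizontal axis, a difference of mean log2 CPM), 1 point per library, coloured by group and shaped by replicate. Nfe2l2 and Txnrd1 are lower in libraries of high score within the NR groups. Nqo1 does not overlap between the genotypes there, so any split by score gives the same direction.

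The genotype difference of Nfe2l2 was seen under INT-747, where the clock score also differed. It averaged 58.9 ± 6.06 CPM in Tg26 and 91.5 ± 14.5 CPM in WT mice (log2 −0.63, SE 0.22, adjusted p = 0.225 in edgeR), without overlap. Under NR it averaged 91.6 ± 23.7 against 96.5 ± 24.6 CPM (log2 −0.08, SE 0.22). Averaged over treatments the log2 difference of −0.35 (SE 0.15) became 0.04 with the score as a covariate. The scores of the genotypes did not overlap under INT-747, so this fit cannot tell clock phase from genotype there. The part of the clock in the difference was not tested. Keap1, on chromosome 9 from 21229730 to 21239361 on the minus strand, varied least. It was at 35.1 to 41.7 CPM in Tg26 and 36.6 to 39.1 CPM in WT mice under INT-747, and at 34.7 to 37.9 against 38.4 to 41.8 CPM under NR. The averaged genotype difference of Keap1 was −0.05 on the log2 scale (95% interval −0.18 to 0.07). Srxn1, on chromosome 2 from 152105516 to 152111376 on the plus strand, was almost as even, with group means of 55.0 to 67.4 CPM and an averaged genotype difference of −0.14 (95% interval −0.28 to −0.0022, adjusted p = 0.243 in edgeR).

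Hmox1, on chromosome 8 from 75093621 to 75100589 on the plus strand, varied more between mice of a group than between groups. It was at 108, 926 and 33.1 CPM in WT replicates 1, 2 and 3 under INT-747 and at 31.9, 29.2 and 129.6 CPM in Tg26 replicates. Under NR it was at 60.5, 337 and 94.5 CPM in WT and 29.3, 255 and 69.9 CPM in Tg26 replicates. Every group held a mouse at least 4.44 times above its lowest, and WT mice under INT-747 spanned 28.0-fold. Group means of 356 ± 495, 63.6 ± 57.2, 164 ± 151 and 118 ± 120.0 CPM (WT and Tg26 under INT-747, WT and Tg26 under NR) therefore had SDs near or above their own size. The log2 difference between Tg26 and WT mice under INT-747 was −2.49 with a 95% interval of −5.49 to 0.52. Without WT replicate 2 under INT-747, the treatment difference in WT mice went from 1.12 to −1.22 on the log2 scale, and the 108 and 33.1 CPM that remain lie within the range of Tg26 mice under INT-747. The 2 highest libraries, with 926 and 337 CPM, had summed macrophage markers of 98.3 and 63.3 CPM, and summed red cell markers of 16.9 and 45.7 CPM. Of the other 9 members, these 2 libraries held the highest or lowest value only for Txnrd1, which was highest in WT replicate 2 under NR. Txnrd1 was at 269.7 and 278 CPM in them. Of all 10 members, 9 and 8 lay above their own means in these libraries. The median of log2 CPM minus the gene's own mean was 0.189 and 0.192, the highest among the 12 libraries. WT replicate 3 under NR, at 94.5 CPM of Hmox1, had 9 members above their means and a median of 0.167.

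Profiles most like those of the 3 members of widest range were sought over the tested genes in the 12 libraries. The members themselves, predicted genes, clones, Riken genes and pseudogenes were left out. For Hmox1 the closest was Creb3l3, which encodes a membrane-bound transcription factor of the liver and gut, at a root-mean-square difference of 1.04 log2 units. The lipid droplet gene Plin2 followed at 1.12 and the organic anion transporter Slco1a4 at 1.14. Creb3l3 was at only 0.211 to 3.61 CPM and Slco1a4 at 0.168 to 1.43 CPM, whereas Plin2 was at 75.4 to 666 CPM. Distances of 1.04 or more are larger than the whole range of Nqo1 over the libraries. The measure counts the size of the swings as well as their order. It therefore cannot tell whether a gene followed Hmox1 with smaller swings. For Gclc the closest were Nceh1 at 0.157, which encodes a cholesterol ester hydrolase, Larp1b at 0.162 and Cacybp at 0.183. For Gsr the closest was Hspd1, which encodes the mitochondrial chaperonin HSP60, at 0.076, with 880.1, 809 and 1039 CPM in Tg26 mice under INT-747 and 518, 650.2 and 504 CPM in Tg26 mice under NR. Slc1a1, which encodes a transporter of glutamate and cysteine, followed at 0.0995, and Timm9, part of the mitochondrial import machinery, at 0.107.

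Other genes of the pathway gave few calls. Among 34 further glutathione enzymes, 32 were tested and 2 were called in the treatment contrast of Tg26 mice, where 4.38% of all genes were, both higher under INT-747. They were Chac2, which degrades glutathione, at 34.3 ± 4.54 against 22.4 ± 3.49 CPM (log2 0.62, SE 0.15, adjusted p = 0.0436 in edgeR), and Hagh, a hydrolase that releases glutathione from its methylglyoxal adduct, at 224 ± 14.4 against 166 ± 10.3 CPM (log2 0.43, SE 0.09, adjusted p = 0.0321). The list was not of one direction, with 13 higher and 19 lower and a median of −0.07, against −0.04 for all genes. Gss, which completes glutathione synthesis, stood at log2 0.70 and Ggt1, which breaks glutathione down at the brush border, at 0.73, and the transferases Gsto1 and Mgst1 stood at −1.61 and −1.59, all without a call in edgeR (adjusted p from 0.052 to 0.108). DESeq2 called 11 of the 32, these 4 among them, against 16.3% of all genes. In the genotype average, Oplah, which recycles oxoproline to glutamate, stood at −0.35 (adjusted p = 0.0753 in edgeR) and Gstz1, a transferase of tyrosine breakdown, at −0.23.

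Of 31 other NRF2 targets 29 were tested and 0 were called in any of the 4 comparisons of single groups by edgeR. Between genotypes 4 under INT-747 and 10 under NR had an unadjusted p under 0.05, against 15.3% and 20.7% of all genes. Between treatments 2 in WT and 10 in Tg26 mice did, against 5.01% and 27.3%. DESeq2 called 3 under NR between genotypes (6.28% of all genes), 5 in Tg26 mice between treatments (16.3%) and 0 in the other comparisons of single groups. Means were lower under INT-747 than under NR in Tg26 mice for 19 of the 29 (median −0.18), so the higher Gclc, Gclm and Gsr were not matched by the list as a whole. The 5 that DESeq2 called there, against 16.3% of all genes, went both ways: Me1, the NADP-dependent malic enzyme, stood at 0.79, the peroxiredoxin Prdx1 at 0.42 and the pentose phosphate enzyme Taldo1 at 0.32, while the glutathione transferase Gsta2 stood at −2.58 and the exporter Abcc4 at −1.04 (edgeR log2 values). In the genotype contrast averaged over treatments 19 of 29 were lower (median −0.09), with Blvrb at −0.33, the heme transporter Slc48a1 at −0.22, Ugdh at −0.38 and the pentose phosphate enzyme Pgd at −0.34. Of 16 regulators, 10 were lower in Tg26 mice in that average, and Sqstm1, whose product competes with NRF2 for KEAP1, stood at −0.42 (SE 0.12, adjusted p = 0.108 in edgeR). Bach1, a repressor of Hmox1, stood at −0.28. In the 4 comparisons of single groups edgeR called 0 regulators. An unadjusted p under 0.05 was found for 1 of 16 between genotypes under either treatment, against 15.3% (INT-747) and 20.7% (NR) of all genes. Between treatments it was found for 0 in WT and 4 in Tg26 mice, against 5.01% and 27.3%. DESeq2 called 0 regulators between genotypes under INT-747 and between treatments in WT mice. It called Sqstm1 between genotypes under NR (6.28% of all genes), and Cul3 and Dpp3 between treatments in Tg26 mice (16.3%).

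Of 22 thioredoxin, peroxidase and superoxide dismutase genes 18 had lower means in Tg26 mice under NR (median −0.17) and 9 under INT-747 (median 0.04), with 0 calls in edgeR. An unadjusted p under 0.05 was found for 9 under NR and 3 under INT-747, against 20.7% and 15.3% of all genes. DESeq2 called 1 under each (Msrb1 and Sesn2), against 6.28% and 3.87%. Txnrd3 stood at −0.38 and the sestrin Sesn2 at −0.91 in the average over treatments. Of 28 peroxisomal genes, the compartment of catalase, 24 had lower means in Tg26 mice in the average (median −0.18). One was called, Slc25a17, which encodes a transporter of the peroxisomal membrane, at log2 −0.43 (SE 0.08, adjusted p = 0.0451 in edgeR), and DESeq2 called 9, against 0.446% and 7.61% of all genes. Hsd17b4, an enzyme of peroxisomal fatty acid oxidation, stood at −0.45 and the thiolase Acaa1b at −1.11, both without a call in edgeR. A further list held 12 genes of heme synthesis, breakdown, transport and scavenging and of iron storage and export. All 12 had lower means under INT-747 than under NR in WT mice (median −0.22), with 0 calls in edgeR and in DESeq2. An unadjusted p under 0.05 was found for 5 of them and 5.01% of all genes, of which 48.7% were higher under INT-747.

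A pair of antisense transcripts overlap exons of members, Gm17494 with Gclm and Gm16754 with Keap1, and a processed pseudogene, Gm6061, shares 244 exon bases with Gclm on its strand. They held 519, 231 and 39 counts in all libraries together, against 71694 for Gclm and 11488 for Keap1. The strand setting of the authors' counting is not given in the sources used here, so reads of Gclm and Keap1 cannot be fully told from those of these neighbours.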

How the data were processed

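The authors deposited RSEM expected counts per gene for 12 libraries, as whole numbers not scaled to library size. Per the labels' protocols, libraries were stranded TruSeq mRNA libraries. Per the submitters' processing notes, bcl2fastq 2.17, cutadapt 1.18, STAR 2.7.0f, RSEM 1.3.1 and build mm10 were used, with settings and rounding not given in the sources used here. All IDs and symbols were found in GENCODE mouse release 21, which supplied exon lengths.

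The deposited expected counts, already whole, were filtered with filterByExpr, scaled by TMM to CPM and fitted with edgeR 4.0.16 (R 4.3.3), using the robust quasi-likelihood test on 4 group means with 8 residual degrees of freedom. A gene is called when its adjusted p (Benjamini-Hochberg, over the 15708 genes tested) is under 0.05. Intervals are at 95%. P-values measure the spread between these 12 mice. Totals were 22286343 to 28952177 counts.

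Alternatives were RLE size factors, no filter, DESeq2 1.42.0, a replicate block, a clock score covariate and leaving out each library. The clock slope and the proximal tubule sum without Kap and Slc7a13 were added after seeing the data. The fit was tested on simulated data. The members and lists were chosen with earlier results of these data known. All members are named, with up to 4 genes per list of smallest p in the averaged genotype contrast and any list gene called by edgeR. Also named are the 3 genes nearest in profile to each of the 3 members of widest range, after the exclusions given above. Genes named beyond this (Gss, Ggt1, Gsto1, Mgst1, Me1, Prdx1, Taldo1, Gsta2, Abcc4, Cul3, Dpp3 and Msrb1) were chosen after their values were seen. A gene that the rule names is not reported here.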

Additional observations from a re-analysis of the deposited data

Results flagged for a closer look

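Gclc and Gclm stand out because their genotype difference took opposite directions under the treatments, with no overlap between the genotypes in either. For Gclc under NR the margin was narrow. Tg26 replicate 3, the library of female pattern, was at 140.8 CPM and WT replicate 1 at 141.8 CPM. The difference between the genotype effects was 0.91 for Gclc and 0.73 for Gclm on the log2 scale. It was tested as an interaction and did not pass (adjusted p = 0.229 for both in edgeR, with a range of 0.0777 to 0.497 for Gclc and 0.0462 to 0.497 for Gclm when single libraries were left out). DESeq2 called both (adjusted p = 0.0138 and 0.0123).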

How the results depend on the processing

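RLE size factors changed no member call. For other settings, counts of genes called changed as follows. With no filter they were 64 for Tg26 minus WT under INT-747, 6 under NR and 122 for the averaged treatment contrast, and 1 member passed in the averaged genotype contrast. With the clock score they were 2 for Tg26 minus WT under INT-747, 2 in the averaged genotype contrast, 6 for the treatments in WT mice, 1235 in Tg26 mice, with 4 members (Nfe2l2 lower beside Gclc, Gclm and Gsr), and 639 averaged, with 3 members (Nfe2l2 lower, Gclm and Gsr higher). DESeq2 called 525, 967, 61, 2167, 247, 1195 and 776 genes (genotype under INT-747 and under NR, treatment in WT and in Tg26 mice, interaction, averaged genotype and averaged treatment), with 1, 4, 0, 4, 3, 3 and 3 members. Same-numbered mice showed no clear joint deviation, as 4 of 18 pairs had a correlation over 0.1, with a range of −0.23 to 0.26. Of 12 libraries 5 correlated best with their own number. With 3 mice per group this check cannot decide whether same-numbered mice share an origin. With the replicate block 11, 71 and 37 genes were called in the genotype contrast under INT-747, the treatment contrast in Tg26 mice and the averaged treatment contrast, and 1 member, Gclc, in Tg26 mice.

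Leaving out single libraries, genes called ran from 0 to 195 and 0 to 785 (genotype under INT-747 and NR), 2 to 5 and 0 to 2320 (treatment in WT and Tg26 mice), 0 to 174 (interaction), 0 to 1223 and 9 to 400 (averaged genotype and treatment). Members called ran from 0 to 4 for genotype under NR, 0 to 3 for treatment in Tg26 mice, 0 to 1 for the interaction, 0 to 3 for averaged genotype and 0 to 2 for averaged treatment, the last 2 being Gclm and Gsr. The cause was not tested.

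Signs changed only for log2 values without a call. With the clock score Nfe2l2 stood at 0.21 and Hmox1 at 0.0346 for genotype under NR, Gclm at 0.0282 and Gsr at 0.00656 for treatment in WT mice, and Nfe2l2 at 0.0435 for averaged genotype. With no filter Srxn1 stood at −0.0100 in the interaction and Keap1 at −0.000364 in the averaged treatment contrast. Without single libraries the ranges were −0.29 to 0.0648 for Nfe2l2 and −1.72 to 0.62 for Hmox1 (genotype under NR). For treatment in WT mice they were −0.28 to 0.0456 for Nfe2l2, −0.0725 to 0.0469 for Gclm, −0.0408 to 0.0147 for Gsr, −1.22 to 2.21 for Hmox1 and −0.31 to 0.0218 for Txnrd1. In Tg26 mice they were −0.11 to 0.15 for Nqo1, −1.96 to 0.34 for Hmox1 and −0.0892 to 0.14 for Txnrd1. In the interaction they were −3.12 to 0.31 for Hmox1, −0.00553 to 0.33 for Txnrd1 and −0.0773 to 0.11 for Srxn1. In the averaged treatment contrast they were −0.0189 to 0.0370 for Keap1, −0.13 to 0.0148 for Nqo1, −1.06 to 0.73 for Hmox1, −0.15 to 0.0191 for Txnrd1 and −0.0321 to 0.0626 for Cat. Clock slopes ran from −0.00471 to 0.0458 for Nqo1, −0.65 to 0.23 for Hmox1 and −0.0479 to 0.000786 for Cat.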
